A study of Homo sapiens with 11 samples.

Results

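The genes described are 9 angiogenic factors and neuropilins: VEGFA, VEGFB, VEGFC, PGF, ANGPT1, ANGPT2, FGF2, NRP1 and NRP2. They were chosen by name, as the rows of the deposited count table whose gene name is one of these, and each name matched 1 of 78932 human rows. The filter on low counts kept 8 of the 9 among 18245 genes tested, and ANGPT2 was the one it removed. The study grew engineered myometrial microtissues (EMMIs) from hTERT-HM, a human uterine smooth muscle line immortalised with telomerase, labelled WT and with no transgene or added agent in the labels. RNA-seq was run while the tissues formed, with 3 libraries from day 1, 4 from day 3 and 4 from day 6, so the day is what is compared across these 11 libraries. Every group is thus the same immortalised line, and the labels name no other cell type in the tissues. The labels do not say whether libraries of a day came from separate cultures, so the p-values measure the spread between these libraries, which may be technical.

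The VEGF family is a group of secreted growth factors that act on endothelial cells, the lining of blood vessels. VEGFA acts mainly through the receptor KDR (VEGFR2), VEGFB and PGF bind FLT1 (VEGFR1), and VEGFC acts through FLT4 (VEGFR3) in lymphatic vessels. NRP1 and NRP2 are neuropilins, co-receptors that bind VEGFs and class 3 semaphorins. Angiopoietins bind the receptor TEK (TIE2), with ANGPT1 as its agonist and ANGPT2 often as its antagonist, and FGF2 is a heparin-binding growth factor of fibroblasts, smooth muscle and endothelium. In the uterus, the myometrium is a richly vascular muscle, and its blood supply changes through the cycle and in pregnancy.

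Library totals lay between 28071813 and 33021509 counts. Values below are CPM, the usual scale of a gene's counts relative to the library total, with TMM scaling factors, and changes are log2 fold changes from edgeR's quasi-likelihood test, called at a Benjamini-Hochberg adjusted p under 0.05 over all genes tested. Summed over 10 myometrial smooth muscle markers, the day 1 libraries had 958 to 1131 CPM, those of day 3 had 1021 to 1091 CPM and those of day 6 had 1799 to 1997 CPM, with DES at no more than 3 counts in any library. The fibroblast list summed to 5734 to 6733 CPM on day 1, 5772 to 6225 CPM on day 3 and 6595 to 9928 CPM on day 6, with COL1A1 highest. The pericyte list, led by PDGFRB, summed to 1002 to 1218 CPM, 1289 to 1395 CPM and 689.7 to 824 CPM on these days. These sums do not stand for each gene of a list. From day 3 to day 6, 3 of the 6 pericyte genes were called higher and 2 lower, with a median log2 change of 0.15. Of the 5 fibroblast genes, 2 were called higher and 2 lower, with a median of -0.10. Of the 9 smooth muscle genes tested, 8 were called higher and 1 lower, with a median of 1.12. Of the 7 endothelial genes tested, 1 was called higher, TEK, and 4 lower, with a median of -0.19. Of all tested genes, 26.4% were called higher and 23.4% lower in that comparison. Of 12 endothelial markers, ERG, CLDN5 and SOX18 had no more than 3 counts in any library. Epithelial markers, led by KRT8, summed to 32.0 to 55.7 CPM over all libraries, with EPCAM and CDH1 at no more than 3 counts, and leukocyte markers, led by CD14, to 3.44 to 11.1 CPM, with PTPRC at no more than 3 counts. The part of these markers in the changes described was not tested.

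The ligands VEGFB, VEGFC and PGF fell together, so their promoters were read from RefSeq (GRCh38.p14) as the 250 bases before the annotated start, written 5′ to 3′ on the strand of the gene. The windows are chr11:64234334-64234583 on the plus strand for VEGFB, chr4:176792923-176793172 on the minus strand for VEGFC and chr14:74955765-74956014 on the minus strand for PGF. Capitals mark matches on either strand to the GC box, GGGCGG, and to a form of the hypoxia response element core, GCGTG, so a match on the other strand shows as its reverse complement.
VEGFB: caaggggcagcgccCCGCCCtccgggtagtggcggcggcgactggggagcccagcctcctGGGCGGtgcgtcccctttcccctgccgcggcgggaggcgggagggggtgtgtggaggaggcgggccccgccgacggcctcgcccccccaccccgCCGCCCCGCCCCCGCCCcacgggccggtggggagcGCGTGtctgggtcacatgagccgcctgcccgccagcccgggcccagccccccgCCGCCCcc
VEGFC: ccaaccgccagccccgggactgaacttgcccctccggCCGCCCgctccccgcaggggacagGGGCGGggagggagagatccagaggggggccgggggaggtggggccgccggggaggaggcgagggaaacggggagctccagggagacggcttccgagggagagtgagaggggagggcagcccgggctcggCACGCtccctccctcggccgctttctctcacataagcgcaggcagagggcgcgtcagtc
PGF: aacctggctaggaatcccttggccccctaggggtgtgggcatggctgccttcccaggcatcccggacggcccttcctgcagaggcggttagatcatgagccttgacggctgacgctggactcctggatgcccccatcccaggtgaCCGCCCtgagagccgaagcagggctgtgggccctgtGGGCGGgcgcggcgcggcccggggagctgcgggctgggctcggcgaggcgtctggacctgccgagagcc
The VEGFB window held 6 GC boxes, some of which overlap by a base, and the VEGFC and PGF windows held 2 each. VEGFB and VEGFC each held 1 GCGTG core and PGF held 0. Among 35116 RefSeq promoter windows of the same length, 42.6% held a GC box and 32.2% held GCGTG. The windows of NRP2 and FGF2, which were not called lower, also held GC boxes, 3 each, with 1 GCGTG in FGF2 and 0 in NRP2. These motifs were thus not limited to the genes called lower, although NRP2 just missed the threshold from day 3 to day 6 (-0.25, adjusted p = 0.0525). Any part of the motifs in the changes was not tested. The RefSeq starts differ in places from the deposited gene coordinates given below. By those coordinates the NRP2 window (chr2:205682251-205682500, plus strand) lies inside the gene. The FGF2 window (chr4:122826581-122826830, plus strand) runs past the start of its gene, and the PGF window does not adjoin the start of PGF. The share of G and C was 82.8% in VEGFB, 74.0% in VEGFC and 70.8% in PGF, and 70.0% in NRP2 and 75.2% in FGF2, against a median of 58.0% over all windows. The hypoxia core ACGTG (18.5% of all windows), the AP-1 motif TGANTCA (6.57%), the TEAD motif GGAATG (11.9%) and TATAAA (10.7%), likewise searched on either strand, had no match in any of the 5 windows. No window was at hand for VEGFA, NRP1 and ANGPT1, which rose in the late step, or for ANGPT2. A match is a string of letters and not a measured binding site.

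From day 3 to day 6, VEGFA rose 1.64-fold while VEGFB, VEGFC and PGF fell 1.22-fold, 1.45-fold and 2.25-fold. ANGPT1 rose 1.29-fold and NRP1 rose 1.33-fold in the same step. NRP2 and FGF2 did not pass the test, and ANGPT2 was at or near 0. Of the 8 factors tested, 3 rose and 3 fell in this late step, beside 26.4% of all tested genes that rose, 23.4% that fell and 49.9% called in either direction. Scaled by library totals in place of TMM, 7885 genes rose and 2239 fell in this step, against 4825 and 4277. Libraries of the days did not overlap for 6 of the 8, beside 44.0% of all tested genes. From day 1 to day 3, NRP2 rose and NRP1 fell, 2 of 8 factors beside 6.88% of all genes that rose, 5.90% that fell and 12.8% in either direction, and libraries did not overlap for 3 of 8 beside 28.0%. From day 1 to day 6, 2 rose and 3 fell, beside 21.3% and 18.7% of all genes and 39.9% in either direction, and libraries did not overlap for 5 of 8 beside 41.8%. The median log2 change over the 8 was -0.17 in the early step, -0.10 in the late step and 0.05 from day 1 to day 6. Over all genes tested these medians were 0.00, 0.03 and 0.02. The comparisons share libraries, so a high or low day 3 enters both steps, and the late step spans more days than the early one.

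**Figure D1:**
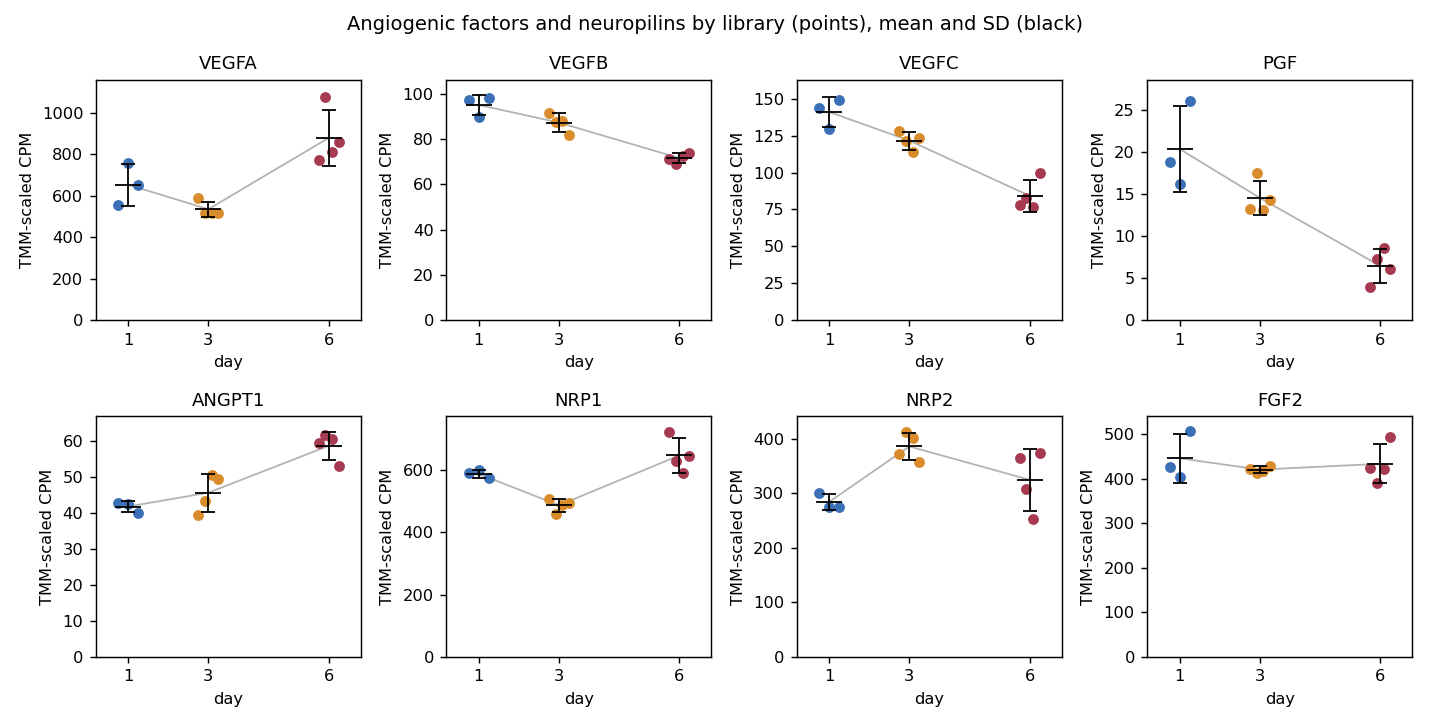
TMM-scaled CPM (y axis, from 0) against day (x axis) for the 8 factors tested, with a point for each library and the mean ± SD in black. VEGFA was highest on day 6, VEGFB, VEGFC and PGF were lowest on day 6, NRP1 dipped on day 3 and NRP2 peaked there.

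VEGFA (ENSG00000112715, chromosome 6, 43770184 to 43786487, GRCh38) encodes the main VEGF of vessel growth. Its level was 552, 755 and 649.9 CPM in the day 1 libraries, a mean of 652 ± 101 CPM (SD, n = 3). The day 3 libraries held 588, 517, 516 and 516 CPM (534 ± 35.9, SD, n = 4), and the day 6 libraries held 770.2, 1074, 809 and 858 CPM (878 ± 136, SD, n = 4). All 4 day 6 libraries were above every earlier library, the lowest of them only narrowly above the highest of day 1, and days 1 and 3 overlapped. The late rise was 0.72 ± 0.107 on the log2 scale (SE, adjusted p = 6.85e-05), and the change from day 1 to day 6 was 0.43 ± 0.116 (adjusted p = 0.00904). The early change of -0.29 ± 0.115 was not called (adjusted p = 0.120), and it was called in 4 of 20 alternative fits. The late change exceeded the early one by 1.01 ± 0.193 (adjusted p = 0.00109), beside 35.2% of all genes called for this difference of steps. Counts per gene do not separate the splice forms of VEGFA.

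VEGFB (ENSG00000173511, chromosome 11, 64234584 to 64239264) encodes a ligand of FLT1 and NRP1. It ranged from 89.9 to 98.1 CPM on day 1, from 81.8 to 91.7 CPM on day 3 and from 69.0 to 73.9 CPM on day 6. Days 1 and 3 overlapped, and all day 6 libraries were below them. The late fall was -0.29 ± 0.0511 (SE, adjusted p = 0.000121) and the fall from day 1 to day 6 was -0.41 ± 0.0547 (adjusted p = 9.23e-06). The early change was -0.12 ± 0.0547 (adjusted p = 0.153), and it was called in 1 of 20 alternative fits. VEGFB was the only factor whose late call was lost in an alternative fit: with library totals in place of TMM, its late change was -0.10 (adjusted p = 0.101) while the median of all genes stood at 0.22 in place of 0.03.

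VEGFC (ENSG00000150630, chromosome 4, 176683538 to 176792922) encodes the growth factor of lymphatic vessels. Its level was 144, 129.8 and 149 CPM on day 1, then 128, 121, 114 and 123 CPM on day 3. By day 6 it was 77.7, 82.7, 76.6 and 99.8 CPM. No libraries overlapped between any pair of days, with each later day lower, although the gap between days 1 and 3 was small. The late fall was -0.53 ± 0.0742 (SE, adjusted p = 1.22e-05) and the fall over the whole course was -0.75 ± 0.0791 (adjusted p = 1.17e-06). The early change of -0.21 ± 0.0790 was not called (adjusted p = 0.0839), and it was called in 5 of 20 alternative fits. The late change did not differ detectably from the early one (difference -0.32 ± 0.131, adjusted p = 0.0681).

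PGF (ENSG00000119630, chromosome 14, 74941834 to 74955626) encodes placental growth factor, which binds FLT1. It had 18.8, 16.2 and 26.2 CPM on day 1, and 13.3, 17.5, 13.2 and 14.3 CPM on day 3. The day 6 libraries had 3.88, 7.23, 8.59 and 6.11 CPM. Days 1 and 3 overlapped, and every day 6 library was below every earlier one. PGF fell by 1.17 ± 0.230 on the log2 scale in the late step (SE, adjusted p = 0.00171) and by 1.66 ± 0.238 from day 1 to day 6 (adjusted p = 0.000307), which is 3.15-fold. The early change was -0.49 ± 0.226 (95% interval -0.99 to 0.01, adjusted p = 0.200), and it was called in 1 of 20 alternative fits. PGF also varied most between libraries of a day, with a biological coefficient of variation of 21.6%, against 5.49% to 10.7% for the other 7. In bulk RNA, fewer cells that make a transcript and less of it per cell cannot be told apart.

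**Figure D2:**
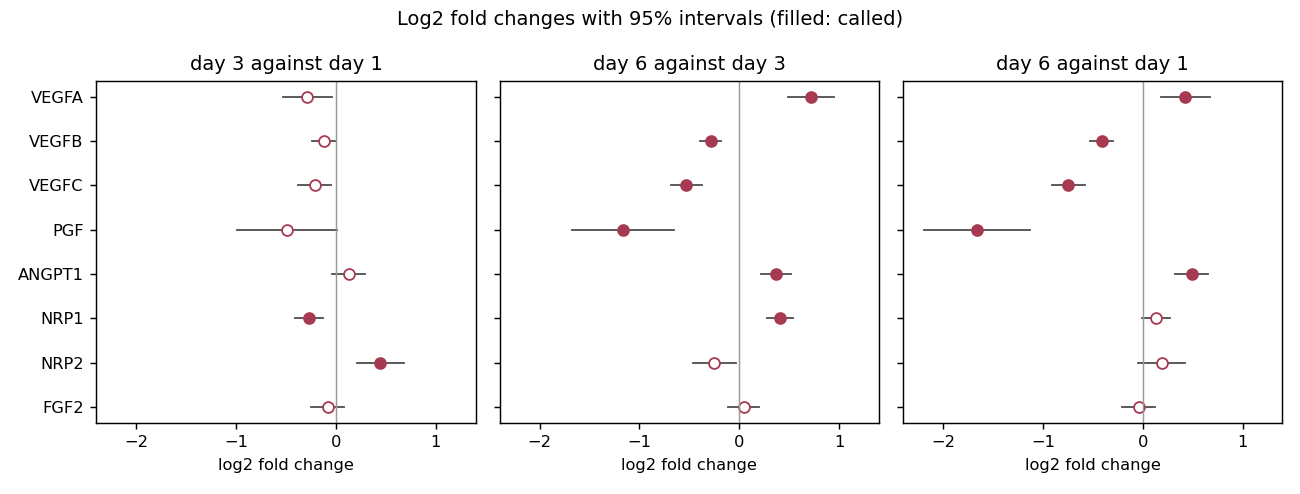
Log2 fold change (x axis) of the 8 factors (rows) in the 3 comparisons of days, with 95% intervals as lines and filled points where the gene was called. In the late step the filled points lie on both sides of 0, with VEGFA at 0.72 and PGF at -1.17.

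The balance between ligands was also read within each library, as a ratio of counts that does not depend on library scaling. The pairs were chosen with the changes of the single genes known and restate them, so the ratios are a description with no test. The VEGFA to VEGFC ratio was 3.83, 5.81 and 4.35 on day 1, and 4.58, 4.26, 4.54 and 4.18 on day 3. It reached 9.91, 13.0, 10.6 and 8.60 on day 6, above every earlier library. The means were 4.66 ± 1.03, 4.39 ± 0.199 and 10.5 ± 1.84 (SD, n = 3, 4 and 4).

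The VEGFA to PGF ratio was 29.4, 46.6 and 24.9 on day 1, and 44.3, 29.6, 39.2 and 36.0 on day 3. It reached 198, 149, 94.3 and 140.5 on day 6. Days 1 and 3 overlapped, and all 4 day 6 libraries were above any earlier one. These ratios compare reads per gene and not molecules, since the transcripts differ in length.

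**Figure D3:**
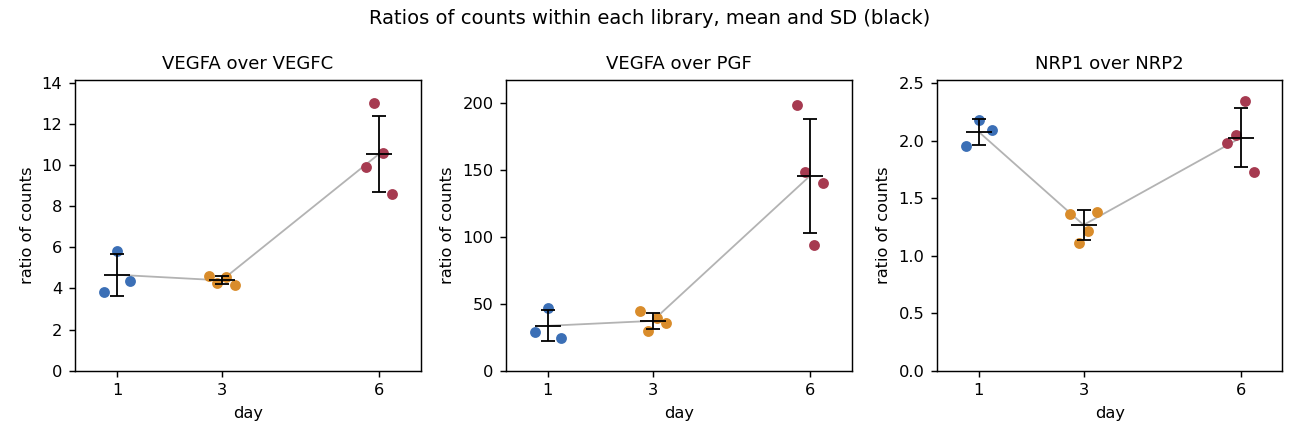
Ratio of counts within each library (y axis, from 0) against day (x axis), with a point for each library and the mean ± SD in black. The ratios of VEGFA to VEGFC and to PGF were highest on day 6, and the ratio of NRP1 to NRP2 was lowest on day 3.

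ANGPT1 (ENSG00000154188, chromosome 8, 107249482 to 107498055) encodes the TEK agonist that stabilises vessels. It had 42.8, 42.6 and 40.1 CPM on day 1, and 39.4, 43.3, 50.5 and 49.6 CPM on day 3. The level then reached 59.4, 61.8, 60.6 and 53.2 CPM on day 6. The day 6 libraries were all above the others, and days 1 and 3 overlapped. The late rise was 0.36 ± 0.0716 (SE, adjusted p = 0.000340) and the rise from day 1 to day 6 was 0.49 ± 0.0779 (adjusted p = 6.23e-05). The early change was 0.13 ± 0.0783 (adjusted p = 0.321).

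ANGPT2 (ENSG00000091879, chromosome 8, 6499632 to 6563409) encodes the other main TEK ligand, best known from activated endothelium. It had 0, 0 and 2 counts on day 1, 0, 0, 3 and 4 counts on day 3, and 1, 2, 1 and 1 counts on day 6. These are at or near the floor of 3 counts per library, so no change was computed. ANGPT2 lies within MCPH1, a gene on the opposite strand that had 455 to 634 counts, and the strand setting of the counting is not given in the sources used here.

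The receptor of both angiopoietins, TEK, had between 8.69 and 9.14 CPM in the day 3 libraries and between 10.8 and 14.6 CPM in those of day 6. It rose by 0.46 ± 0.101 (SE, adjusted p = 0.000839), and no libraries overlapped between the days. TIE1, the related orphan receptor, fell from 11.8, 10.9, 9.50 and 9.33 CPM on day 3 to 4.07, 4.10, 1.76 and 3.16 CPM on day 6, a change of -1.67 ± 0.191 (adjusted p = 5.63e-06). The receptors of this pathway thus moved in opposite directions in the late step. TEK and TIE1 are also endothelial markers, and the 12 endothelial markers summed to between 55.5 and 57.8 CPM at the start, between 58.8 and 62.6 CPM by day 3 and between 47.2 and 52.8 CPM by day 6. PECAM1 was the highest of these, with means of 31.1, 32.3 and 28.4 CPM, and CDH5 had no more than 8 counts in any library.

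The VEGF receptors were low. FLT1, which binds VEGFA, VEGFB and PGF, had 7.54, 6.38 and 7.13 CPM on day 1 and 8.66, 10.8, 10.8 and 9.03 CPM on day 3. The values were 9.58, 10.2, 9.22 and 10.3 CPM on day 6. Every day 3 and day 6 library was above every day 1 library. FLT1 rose by 0.48 ± 0.106 in the early step (SE, adjusted p = 0.00513), and its late change was 0.00 with a 95% interval of -0.20 to 0.20. KDR, the main signalling receptor of VEGFA, averaged 1.35 CPM on day 1, 1.65 CPM on day 3 and 0.750 CPM on day 6. It fell by 1.13 ± 0.218 in the late step (adjusted p = 0.000255), the step in which VEGFA rose. FLT4, the receptor of VEGFC, had no more than 7 counts in any library and was not tested. The counts do not separate the membrane form of FLT1 from its soluble form.

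**Figure D4:**
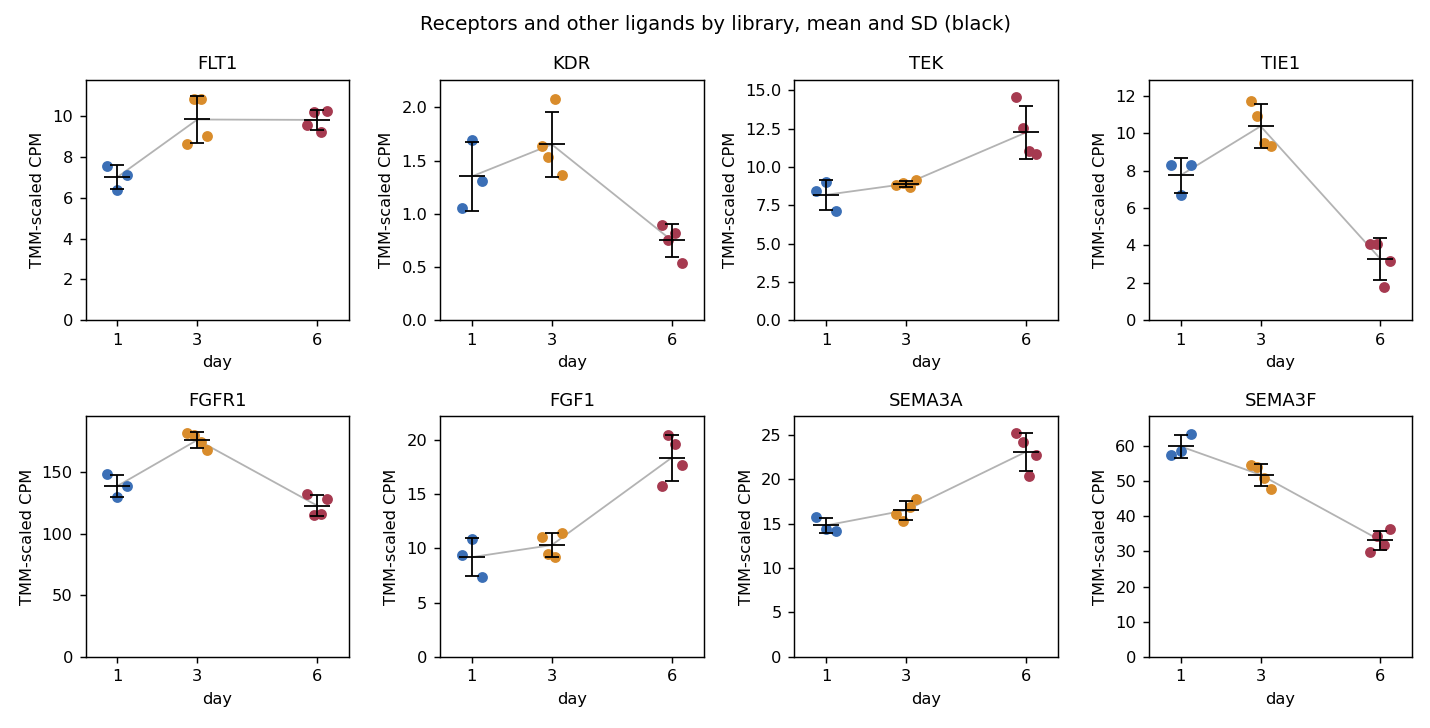
TMM-scaled CPM (y axis, from 0, on a scale of its own in each panel) against day (x axis) for receptors and other ligands, with a point for each library and the mean ± SD in black. KDR and TIE1 were lowest on day 6, TEK and FGF1 were highest on day 6, and FGFR1 peaked on day 3.

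The neuropilins moved in opposite directions in the early step. NRP1 (ENSG00000099250, chromosome 10, 33177492 to 33336262), the co-receptor of KDR for VEGFA, had 589, 601 and 575 CPM on day 1 and 509, 458, 489 and 493 CPM on day 3. The day 6 libraries had 723, 629, 592 and 645 CPM. Every day 3 library was below all others, and days 1 and 6 overlapped. NRP1 changed by -0.27 ± 0.0666 in the early step (SE, adjusted p = 0.0107) and by 0.41 ± 0.0620 in the late step (adjusted p = 2.08e-05). Its change from day 1 to day 6 was 0.14 ± 0.0669 (adjusted p = 0.111). The late change exceeded the early one by 0.68 ± 0.111 (adjusted p = 0.000104).

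NRP2 (ENSG00000118257, chromosome 2, 205681990 to 205798133), the co-receptor better known for VEGFC, had 301, 275 and 275 CPM on day 1 and 373, 412, 401 and 358 CPM on day 3. Day 6 gave 365, 308, 252 and 373 CPM. Every day 3 library was above every day 1 library, and day 6 was spread over the range of both. NRP2 rose by 0.44 ± 0.110 in the early step (SE, adjusted p = 0.0174), and this call was lost without day 1 replicate 2 (adjusted p = 0.0845), day 1 replicate 3 (adjusted p = 0.0676) or day 3 replicate 2 (adjusted p = 0.0517), with changes between 0.41 and 0.42. The late change of -0.25 ± 0.101 just missed the threshold (adjusted p = 0.0525) and was called in 8 of 20 alternative fits. The late change was below the early one by a difference of -0.69 ± 0.177 (adjusted p = 0.00770).

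Within libraries the NRP1 to NRP2 ratio was 1.96, 2.18 and 2.09 on day 1, and 1.37, 1.11, 1.22 and 1.38 on day 3. Day 6 gave 1.98, 2.05, 2.35 and 1.73. Day 3 was below both other days with no overlap, and days 1 and 6 overlapped. The pair was chosen with the single-gene changes known, so this too is a description.

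Of 14 tested partners of the neuropilins, 2 rose and 4 fell in the early step and 5 rose and 4 fell in the late step, beside 6.88% and 5.90% of all tested genes that rose and fell early and 26.4% and 23.4% late, and the medians were -0.13 and 0.03. SEMA3C, a semaphorin that binds both neuropilins, rose early by 0.53 ± 0.0955 (adjusted p = 0.00229), and SEMA3D rose by 0.84 ± 0.202 (adjusted p = 0.0100). PLXND1, a plexin that signals with neuropilins, fell early from 277, 274 and 283 CPM to 199, 207, 188 and 181 CPM. That change was -0.52 ± 0.0655 (adjusted p = 4.99e-05), in the step in which NRP1 fell. SEMA3A, the semaphorin best known as a ligand of NRP1, rose late by 0.48 ± 0.0769 (adjusted p = 3.67e-05). SEMA3F, the semaphorin best known as a ligand of NRP2, had 54.6, 54.1, 50.8 and 47.8 CPM on day 3 and 30.0, 34.4, 32.0 and 36.3 CPM on day 6. It fell by 0.65 ± 0.0648 (adjusted p = 1.66e-07). The adhesion molecule NRCAM fell late by 1.67 ± 0.288 (adjusted p = 0.000189). SEMA3E, a ligand of PLXND1 that is among the 5 called higher, had 2, 1, 1 and 3 counts on day 3 and 12, 10, 11 and 10 counts on day 6. Its day 3 libraries were at or under the floor of 3 counts and it passed the filter only through day 6, so no fold change is given. The tested partners L1CAM and PLXNA4 also had few counts. L1CAM had 6, 10, 3 and 5 counts on day 3 and 16, 25, 26 and 21 counts on day 6. PLXNA4 had 7, 5, 4 and 8 counts, then 18, 33, 12 and 10. Only on day 6 did every library of either gene reach the filter's minimum of 10 counts, so no size of change is given.

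FGF2 (ENSG00000138685, chromosome 4, 122826682 to 122898236) was not called in any comparison. It had 427, 403 and 509 CPM on day 1, 423, 412, 418 and 429 CPM on day 3, then 425, 392, 423 and 495 CPM on day 6. All 3 days overlapped, with 1 high library on day 1 and another on day 6. The changes were -0.08 (95% interval -0.25 to 0.08) in the early step, 0.04 (-0.11 to 0.20) in the late step and -0.04 (-0.21 to 0.13) from day 1 to day 6, with adjusted p-values of 0.542, 0.649 and 0.719. Each of these signs turned under at least 1 other setting, and with library totals the late change was 0.23 and called (adjusted p = 0.00653), close to the 0.22 of the median gene. FGF2 shares 804 exon bases with NUDT6 on the opposite strand, whose counts of 47 to 134 came to no more than 1.04% of those of FGF2.

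Other genes of the FGF pathway were called. FGF1, the other widely expressed heparin-binding FGF, had 9.41, 10.8 and 7.35 CPM on day 1, 11.1, 9.49, 9.26 and 11.4 CPM on day 3, then 15.8, 20.5, 19.6 and 17.7 CPM on day 6. Day 6 was above all others, and the late change was 0.83 ± 0.112 (SE, adjusted p = 7.33e-06). The list of FGF receptors also holds the adaptors FRS2 and FRS3. Of its 6 genes tested, 2 rose and 0 fell in the early step (6.88% and 5.90% of all tested genes). In the late step 0 rose and 3 fell (26.4% and 23.4%). FGFR1, the main receptor of FGF2 in mesenchymal cells, had 148, 129.7 and 138 CPM on day 1, 182, 180.5, 175 and 168 CPM on day 3, then 132, 115, 116 and 128 CPM on day 6. The day 3 libraries were above all others. FGFR1 rose by 0.34 ± 0.0626 (adjusted p = 0.00135) and then fell by 0.52 ± 0.0579 (adjusted p = 5.37e-07). FGFRL1, a decoy-like receptor without a kinase domain, rose by 0.23 ± 0.0722 (adjusted p = 0.0457) and then fell by 0.63 ± 0.0673 (adjusted p = 3.72e-07). FGFR4 had 20, 13, 14 and 26 counts on day 3 and 3, 10, 4 and 7 counts on day 6. It passed the filter through days 1 and 3, and these few counts do not fix the size of its change.

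To set the factors against each other, each level was divided by the length of the longest protein-coding transcript, giving CPM per kilobase. On day 1 VEGFA came highest at 185 CPM per kilobase, followed by NRP1, whose libraries lay between 97.8 and 102, and neither overlapped its neighbour. VEGFB at 69.0, VEGFC at 68.4 and FGF2 at 65.8 overlapped, NRP2 followed at 42.6, and PGF at 10.6 overlapped ANGPT1 at 9.61. On day 3 VEGFA at 151 and NRP1 at 82.8 again led, VEGFB, FGF2, VEGFC and NRP2 overlapped between 57.9 and 63.3, and ANGPT1 at 10.5 overlapped PGF at 7.55. On day 6 VEGFA stood at 248 and NRP1 at 110.0, with FGF2 next at 64.0. VEGFB at 51.9 overlapped NRP2 at 48.7, and NRP2 overlapped VEGFC at 40.8. ANGPT1 at 13.5 overlapped neither VEGFC nor PGF, which stood at 3.35. ANGPT2 was last on each day. The lead of VEGFA depends on the length used: divided by all of its annotated exons together, it had 45.2, 37.0 and 60.8 CPM per kilobase and ranked 5, 5 and 2 of the 9, with FGF2 first on each day.

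Other growth factors of vessels from a list of 24 were mixed. Of 18 tested, 0 rose and 1 fell in the early step (6.88% and 5.90% of all tested genes) and 9 rose and 3 fell in the late step (26.4% and 23.4%), with medians of 0.00 and 0.13. CCN1, a matrix-bound protein that promotes vessel growth, fell by 0.87 ± 0.0833 (SE, adjusted p = 4.51e-06) and then rose by 0.88 ± 0.0782 (adjusted p = 4.81e-08). Its relative CCN2 rose late by 0.89 ± 0.0940 (adjusted p = 2.17e-06). ANGPTL4, an angiopoietin-like protein that inhibits lipoprotein lipase, fell late by 2.60 ± 0.258 (adjusted p = 3.65e-05), and MDK, a heparin-binding growth factor, fell by 0.41 ± 0.0703 (adjusted p = 9.46e-05).

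Of 12 tested inhibitors of vessel growth, 4 rose and 6 fell in the late step (26.4% and 23.4% of all tested genes) and 3 rose and 2 fell in the early step (6.88% and 5.90%). THBS1, an abundant secreted inhibitor, had 3679, 4161 and 3293 CPM on day 1, 2097, 1979.9, 2162 and 1866 CPM on day 3, then 5598, 4269, 5151 and 6392 CPM on day 6. Like VEGFA and NRP1 it had its lowest mean on day 3, and its libraries did not overlap between any pair of days. VASH1, vasohibin, rose in both steps, by 0.42 ± 0.114 (adjusted p = 0.0183) and 0.68 ± 0.0992 (adjusted p = 1.50e-05). COL18A1, the source of endostatin, fell late by 1.11 ± 0.167 (adjusted p = 0.000367). COL4A3, a basement membrane collagen that is among the 6 called lower, had 16, 9, 17 and 14 counts on day 3 and 5, 5, 7 and 6 counts on day 6. It passed the filter through day 3, and these few counts do not fix the size of its change. CXCL9, a chemokine also among the 6 called lower, had 32, 12, 4 and 8 counts on day 3 and 2, 0, 2 and 2 counts on day 6. Its day 6 libraries were under the floor of 3 counts and it passed the filter only through days 1 and 3, so no fold change is given.

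VEGFA, PGF and FGF2 can bind heparan sulphate in the matrix. Of 20 tested genes of matrix binding and release, 7 rose and 7 fell in the late step (26.4% and 23.4% of all tested genes), with a median of -0.05. The heparan sulphate proteoglycan SDC3 fell early by 0.63 ± 0.0724 (adjusted p = 2.02e-05) and rose late by 1.11 ± 0.0671 (adjusted p = 4.07e-10), and SDC2 rose late by 0.60 ± 0.0848 (adjusted p = 9.40e-06). HS2ST1, a sulphotransferase of heparan sulphate, fell late by 0.83 ± 0.0951 (adjusted p = 4.18e-06), and MMP14, a membrane-bound matrix protease, fell by 1.43 ± 0.133 (adjusted p = 4.41e-07).

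VEGFA is a textbook target of hypoxia-inducible factors, and most of the other targets listed here fell in the step in which it rose. The cause of the rise of VEGFA was not tested. Of 25 hypoxia targets tested, a list without VEGFA, 2 rose and 18 fell in the late step (26.4% and 23.4% of all tested genes), with a median of -0.37 beside 0.03 for all genes. The 2 that rose were BHLHE40, a transcriptional repressor, by 0.46 ± 0.0813 (adjusted p = 0.000191) and ALDOC, a glycolytic aldolase, by 0.35 ± 0.129 (adjusted p = 0.0319). PDK1, which restrains the use of pyruvate within mitochondria, fell by 0.75 ± 0.0984 (adjusted p = 6.61e-06), and NDRG1, a stress-responsive gene, fell by 0.80 ± 0.0972 (adjusted p = 9.19e-06). ADM, a vasodilator peptide, had 183, 189.6, 172 and 174 CPM on day 3 and 129, 162, 146 and 160.0 CPM on day 6. In the early step 2 of the 25 rose and 0 fell (6.88% and 5.90% of all tested genes).

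Of 12 tested oxygen-sensing genes, 2 rose and 3 fell in the late step (26.4% and 23.4% of all tested genes). EPAS1, which encodes HIF-2α, had 111, 112 and 113 CPM on day 1, 84.5, 82.9, 83.8 and 83.7 CPM on day 3, then 128, 104, 123 and 132 CPM on day 6. Like NRP1, it was below all other libraries on day 3, changing by -0.42 ± 0.0650 (adjusted p = 0.000339) and then 0.54 ± 0.0606 (adjusted p = 6.15e-07). VHL, which marks the factors for degradation, fell late by 0.38 ± 0.0486 (adjusted p = 2.62e-06), and ARNT2, a partner subunit, fell by 0.63 ± 0.0772 (adjusted p = 2.30e-06). HIF1A changed by 0.16 ± 0.0731 in the late step and was not called (adjusted p = 0.0745). Of 17 tested transcription factors and co-activators known to induce VEGFA by other routes, 4 rose and 8 fell in the late step (26.4% and 23.4% of all tested genes). JUN, a subunit of AP-1, rose by 0.33 ± 0.0667 (adjusted p = 0.000382) and TEAD1 rose by 0.31 ± 0.0541 (adjusted p = 9.20e-05). ATF4, the effector of the integrated stress response, fell by 0.99 ± 0.0711 (adjusted p = 2.94e-09), and the nuclear receptor ESRRA fell by 0.75 ± 0.0615 (adjusted p = 1.53e-08). Over the 9 lists together, 34 of 128 tested genes (26.6%) rose and 54 (42.2%) fell in the late step, beside 26.4% and 23.4% of all tested genes, so the share that rose is that of all genes. In the early step 18 (14.1%) rose and 11 (8.59%) fell, beside 6.88% and 5.90%.

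**Figure D5:**
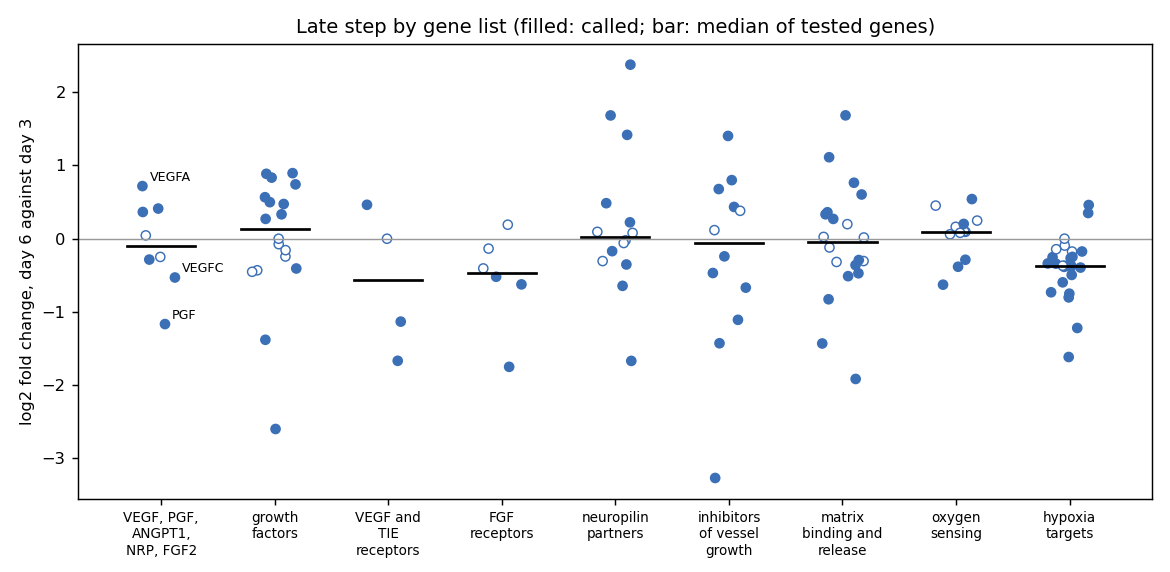
Log2 fold change of day 6 against day 3 (y axis) for the 8 factors and 8 of the 9 gene lists (x axis), each point a gene, filled where called, with a bar at the median. VEGFA lies at 0.72 while the median of the hypoxia targets lies at -0.37.

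The genes with the closest course over the 11 libraries were found among 9995 protein-coding genes, by the root mean square difference of centred log2 values. Closest to VEGFA were MAGOHB at 0.101, the growth factor gene PDGFA at 0.105 and SPOCD1 at 0.111. PDGFA had 5.74, 7.08 and 6.75 CPM on day 1, 5.33, 5.68, 5.14 and 5.83 CPM on day 3, then 7.67, 10.8, 8.16 and 10.1 CPM on day 6, so it too was highest on day 6 in all libraries. Closest to VEGFB was HSF1 at 0.0382, and closest to VEGFC was MTSS2 at 0.0897, with SEMA3F at 0.0950. The closest to PGF was KCNN3, at the larger distance of 0.211. Closest to ANGPT1 was SRFBP1 at 0.0704, to NRP1 MANEA at 0.0521, to NRP2 BCOR at 0.0578 and to FGF2 EHF at 0.0556. The libraries share the sources of variation that set these distances, and the values describe likeness of course only.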

How the data were processed

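The authors deposited raw counts of reads for each gene in 1 table, not normalized, whose columns are the 11 libraries (0 further sample columns). Per the labels' protocols, RNA was poly-A selected and reverse transcribed with random hexamers. The genome build GRCh38 is given per the submitters' processing notes, which also list, without roles or order, featureCounts 2.0.8 and Subread, Salmon 1.10.0, STAR 2.7.11b and DRAGEN. How multi-mapping reads and strand were treated, and the annotation release, are not given in the sources used here. Of 79031 rows, 92 spike-in and 7 transgene rows, with at most 2 counts in any library, were left out. Library totals were 28071813 to 33021509 counts, and the floor of 3 counts covers counting error only.

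Counts were analysed in R 4.3.3 with edgeR 4.0.16: filterByExpr (minimum count 10, minimum total 15), TMM factors, and glmQLFit and glmQLFTest with day as the factor over all 11 libraries. Benjamini-Hochberg adjustment ran over 18245 genes, and calls were made at 0.05. The late step is day 6 against day 3, the early step is day 3 against day 1, and their difference was a contrast of the same fit. Log2 values used a prior count of 2. Ratios of counts were taken within each library, as a description. Alternatives were RLE factors, library totals, DESeq2 1.42.0, limma-voom (limma 3.58.1), other filters, fits on only the days compared, blocks, and leaving out each library. Transcript lengths came from GENCODE and promoters from a set of RefSeq windows, which held 5 of the 9 factors (VEGFB, VEGFC, PGF, NRP2 and FGF2).

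The factors, gene lists and markers were chosen with earlier results of these data known. Named were all 9 factors, the VEGF and TIE receptors, up to 2 rising and 2 falling called genes of each other list and comparison by adjusted p, the closest courses, and overlapping genes. ADM was named after its values were seen.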

Additional observations from a re-analysis of the deposited data

Results flagged for a closer look

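The VEGFA level of day 3 replicate 1, 588 CPM, stood apart from the other 3 libraries of that day, which lay between 516 and 517 CPM. Its gap to the nearest of them made up 0.98 of the range of the group. Of 42 groups of libraries screened in this way, 1 stood out, and chance alone gives about 1 in 20.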

How the results depend on the processing

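Each result was recomputed under up to 20 alternatives. The late changes of VEGFA, VEGFC, PGF, ANGPT1 and NRP1 were called in the same direction in 20 of 20, and VEGFB in 19. Over 632 values of the 8 tested factors, 593 kept their direction and side of the threshold, 4 lost the call, 28 gained it and 7 changed sign, none of those while called.

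In the early step 2 factors were called, against 4 with library totals, 4 in a fit of days 1 and 3 only, 4 with the letter of the column names as a block, and 1 to 3 when a library was left out. Pathway genes called in the early step numbered 29, against 52 in the fit of 2 days and 16 to 42 when a library was left out, and all genes called numbered 2332, against 3617 and 1344 to 2998. The difference of steps was called for 3 factors, against 5 with library totals. The cause of these shifts was not tested. With library totals, 7885 genes rose and 2239 fell in the late step, against 4825 and 4277 with TMM. From day 1 to day 6 these numbers were 5966 and 2040 against 3882 and 3405, and in the early step 840 and 1630 against 1255 and 1077.

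When a library was left out, the log2 change of FGF2 lay between -0.160 and 0.020 in the early step (positive without day 1 replicate 3), between -0.024 and 0.092 in the late step (negative without day 6 replicate 4) and between -0.121 and 0.061 from day 1 to day 6 (positive without day 1 replicate 3 or day 6 replicate 2). That last change was 0.087 with library totals and 0.043 with the letter block. The difference of steps of VEGFB was 0.078 with library totals. Left-out libraries put the early log2 change of the VEGFA to VEGFC ratio between -0.196 and 0.104 (positive without day 1 replicate 2), that of VEGFA to PGF between -0.0040 and 0.450 (negative without day 1 replicate 3), and that of NRP1 to NRP2 from day 1 to day 6 between -0.117 and 0.031 (positive without day 6 replicate 4).

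Same-numbered libraries of different days had low correlations of deviations, from -0.02 to 0.10, with 1 of 10 over 0.1. A library correlated best with its own number in 9 of 20 comparisons, and with its own column letter in 2 of 16. The share that chance gives was not computed, so these values do not settle whether replicate numbers pair libraries. A fit with the replicate block called 2191 genes in the early step, 9162 in the late step and 7119 from day 1 to day 6, and of the factors it added only VEGFC in the early step (adjusted p = 0.0290). ANGPT2 and FLT4, with no more than 4 and 7 counts in any library, did not pass the filter and were not tested.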
